A study of Mus musculus with 4 samples.

Results

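The secreted Wnt antagonists are proteins that cells release to hold back Wnt signals, and 9 of their genes were examined in mouse ureter tumors and normal ureter. They were Frzb, Sfrp1, Sfrp2, Sfrp4 and Sfrp5 of the secreted frizzled-related family, Dkk1, Dkk2 and Dkk3 of the Dickkopf family, and Wif1. They were taken by name from the annotation of the array, as every probe set assigned to 1 of these genes alone, which gave 17 probe sets for 9 of the 18193 genes measured. The list was chosen by gene family with the tumor and normal signals of these arrays already known, so the difference between tumor and normal is given here as a description. The 9 genes went through the fit over all genes like any other, and whether they passed its threshold is part of that description and no test of the list.

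There were 2 ureter tumor samples and 2 normal ureter samples, each hybridised to 1 Affymetrix mouse expression array. All came from mice on the C57Bl/6 background aged 6 to 8 weeks, and the labels name the tissue as isolated ureter epithelium. The same treatment text stands on tumor and normal samples alike: R26rtTA;teto-Cre;Ncstnf/f mice were given doxycycline from the age of 3 weeks for 1 week, which induces Cre and so recombines the floxed alleles of Ncstn. The labels do not say which genotype each sample carried, so tumor and normal are named by tissue only. R26 is a locus that is active in most cell types, so Cre was not limited to the urothelium by its driver. The samples are called biological replicates, but neither the animals behind them nor any pooling is stated, so error estimates measure the spread between these samples only, and their number limits the precision.

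Wnt proteins bind Frizzled receptors together with the co-receptors Lrp5 and Lrp6 at the cell surface, which stabilises beta-catenin and turns on its target genes. Secreted frizzled-related proteins carry a cysteine-rich domain like that of the Frizzled receptors and bind Wnt proteins outside the cell, as Wif1 does through a domain of its own. Dkk1 and Dkk2 bind the Lrp co-receptors instead. In the embryonic mouse ureter, Wnt proteins made by the epithelium act on the surrounding mesenchyme, where smooth muscle forms.

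Promoter windows are shown for Frzb and Dkk2 because both had higher signals on both tumor arrays. That of Dkk1, dim on all 4 arrays, is shown because it holds the most copies of the motif marked. Each is the 250 bases before the start site used in RefSeq's promoter set for GRCm38.p6, written 5′ to 3′ on the strand of the gene. That site is not always the outer end of the annotated gene. The windows of Frzb and Dkk1 end where the gene begins, but that of Dkk2 runs past the gene's start at 132085266. The Sfrp2 window, chr3:83766071-83766320, lies inside the gene, which starts at 83765750. The Frzb window is chr2:80447397-80447646 on the minus strand, the Dkk2 window is chr3:132085042-132085291 on the plus strand, and the Dkk1 window is chr19:30549497-30549746 on the minus strand. Capitals mark CTTTGA or CTTTGT on either strand, the core of the motif that the beta-catenin partners of the TCF/LEF family bind.
Frzb: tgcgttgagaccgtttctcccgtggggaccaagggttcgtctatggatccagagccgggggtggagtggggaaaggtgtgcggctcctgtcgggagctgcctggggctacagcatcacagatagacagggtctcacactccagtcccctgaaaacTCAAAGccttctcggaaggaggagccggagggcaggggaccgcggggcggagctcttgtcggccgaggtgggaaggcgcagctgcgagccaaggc
Dkk2: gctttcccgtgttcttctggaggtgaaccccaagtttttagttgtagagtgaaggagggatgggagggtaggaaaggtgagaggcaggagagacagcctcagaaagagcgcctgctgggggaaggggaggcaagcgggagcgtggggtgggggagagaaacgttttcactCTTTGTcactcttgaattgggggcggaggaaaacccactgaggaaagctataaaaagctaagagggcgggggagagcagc
Dkk1: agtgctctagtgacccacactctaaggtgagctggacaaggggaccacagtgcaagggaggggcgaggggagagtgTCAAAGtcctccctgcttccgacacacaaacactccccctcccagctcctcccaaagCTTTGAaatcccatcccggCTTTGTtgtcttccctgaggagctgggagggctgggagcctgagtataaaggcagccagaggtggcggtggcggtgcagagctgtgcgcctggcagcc
The windows held 1 such core in Frzb, 1 in Dkk2 and 3 in Dkk1, and the windows of Sfrp2, Sfrp5 and Wif1 held 0. Of the 32851 mouse promoter windows of this length, 27.6% held at least 1. The core TGGGAA of the Notch partner RBPJ, searched on both strands, occurred 1 time in the Frzb window and in none of the other 5, against 21.6% of all windows. CpG dinucleotides, at which cytosine can be methylated, numbered 16 in Frzb, 16 in Sfrp2, 13 in Sfrp5, 6 in Dkk1, 7 in Dkk2 and 21 in Wif1, against a median of 6 over all windows. These are matches of letters only.

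Frzb, Dkk2 and Dkk3 had higher signals on both tumor arrays than on either normal array, with mean differences of 2 to 5 log2 units, while Sfrp4 and Wif1 were high on 1 tumor array alone. The 5 probe sets of Sfrp1 differed among themselves, Sfrp2 and Sfrp5 were lowest on the second tumor array, and Dkk1 was dim throughout. Signals are linear values on which every array has the same trimmed mean, so each is relative to the rest of its array. Differences are tumor minus normal on the log2(signal + 16) scale, with the standard error (SE) of a limma fit over all genes, and the added 16 makes differences of dim genes smaller. A gene was read from its probe set with the highest mean on that scale, and genes with a level under a signal of 54.6 were left out of the fit. In the fit 8 of the 9 genes took part, all but Dkk1, and 14 of the 17 probe sets reached that level.

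Frzb, also called secreted frizzled-related protein 3, had signals of 1893 and 2121 in the tumors, against 56.0 and 84.5 in normal ureter, from 1416658_at. Both tumor arrays were far above both normal arrays, and the tumors lay close to each other. The means were 2007 ± 162 in tumors and 70.3 ± 20.1 in normal ureter (SD, n = 2 each), and the log2 difference was 4.57 (SE 0.28). Its second probe set, 1448424_at, gave 266 and 219 in the tumors, against 1.20 and 35.6 in normal ureter, so the groups did not overlap there either. The low end of that probe set is close to no signal, and its log2 difference of 3.11 depends on the added 16.

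Sfrp1, which binds Wnt proteins and Frizzled receptors, was read by 5 probe sets, and their differences ran from 0.55 to 2.20. The probe set 1448395_at gave 2481 and 2185 in the tumors, against 504 and 486 in normal ureter, a log2 difference of 2.20. The probe set 1428136_at gave 850 and 2229 in the tumors, against 946 and 786 in normal ureter, a log2 difference of 0.67. On the first of these the groups were far apart, and on the second the first tumor array lay between the normal arrays. The rule of the highest mean picked 1428136_at, whose mean of 10.11 on the log2 scale was above that of 1448395_at, at 10.10, by a margin smaller than the spread between arrays.

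The other 3 probe sets of Sfrp1 had both tumor arrays above both normal arrays, but by unlike margins. A signal of 540 and 619 in the tumors, against 149 and 239 in normal ureter, came from 1416594_at, and 1438620_x_at, whose name marks probes shared with other transcripts, gave 637 and 757 in the tumors, against 491 and 447 in normal ureter. On both the tumor arrays were alike and above the normal arrays. On 1460187_at the tumors had 205 and 744, against 194 and 134 in normal ureter. There the first tumor array was only slightly above the higher normal array, and the second stood far above. Thus 1428136_at and 1460187_at were 2.62-fold and 3.63-fold higher on the second tumor array than on the first, a gap not seen on the other 3, although 1448395_at, 1416594_at and 1460187_at are annotated to the same cDNA entry.

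Sfrp2, a secreted frizzled-related protein made by mesenchymal cells, had signals of 713 and 263 in the tumors, against 949 and 699 in normal ureter. The first tumor array lay between the normal arrays, and the second was the lowest of the 4. The log2 difference was -0.88 (SE 0.54, n = 2 each).

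Sfrp4 had signals of 16975 and 753 in the tumors, against 908 and 1011 in normal ureter. The first tumor array stood 22.6-fold above the second, and the second was slightly below both normal arrays. The fitted log2 difference of 1.89 (SE 1.57) is therefore a mean of 4.12 on the first tumor array and -0.34 on the second, and it describes neither.

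Sfrp5 was dim, with 96.1 and 38.7 in the tumors, against 131 and 73.1 in normal ureter, a log2 difference of -0.55 (SE 0.56). The groups overlapped, and its second probe set was under the level needed for the fit, with 15.3 and 20.1 in the tumors, against 13.6 and 6.02 in normal ureter.

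Dkk2, which binds Lrp6 and can block or mildly activate the pathway depending on the co-receptor Kremen, had signals of 1843 and 1453 in the tumors, against 325 and 283 in normal ureter. The groups were well apart and the arrays within each were close. The means were 1648 ± 276 in tumors and 304 ± 29.9 in normal ureter (SD, n = 2 each), and the log2 difference was 2.37 (SE 0.23).

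Dkk3, a divergent member of the Dickkopf family, had signals of 2434 and 1002 in the tumors, against 309 and 433 in normal ureter. Both tumor arrays were above both normal arrays, with the first 2.43-fold above the second. The log2 difference was 2.05 (SE 0.51). The second probe set, 1417312_at, showed the same order, with 2103 and 822 in the tumors against 197 and 272 in normal ureter, a log2 difference of 2.43.

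Dkk1, the best known Dickkopf inhibitor and itself a target of beta-catenin, was too dim for the fit. The brighter of its probe sets gave 1.04 and 69.5 in the tumors, against 44.9 and 32.0 in normal ureter, and the other gave 1.43 and 3.23 in the tumors, against 6.87 and 1.11 in normal ureter. On the brighter one the tumor values lay on either side of the normal ones, and on the other they lay between them. No detection calls are in the files used here, so whether these signals exceed background is unknown.

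Wif1 had signals of 179 and 44.6 in the tumors, against 49.8 and 48.4 in normal ureter. The first tumor array alone was high, and the second lay just below the normal arrays. The log2 difference was 0.74 (SE 0.68).

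**Figure D1:**
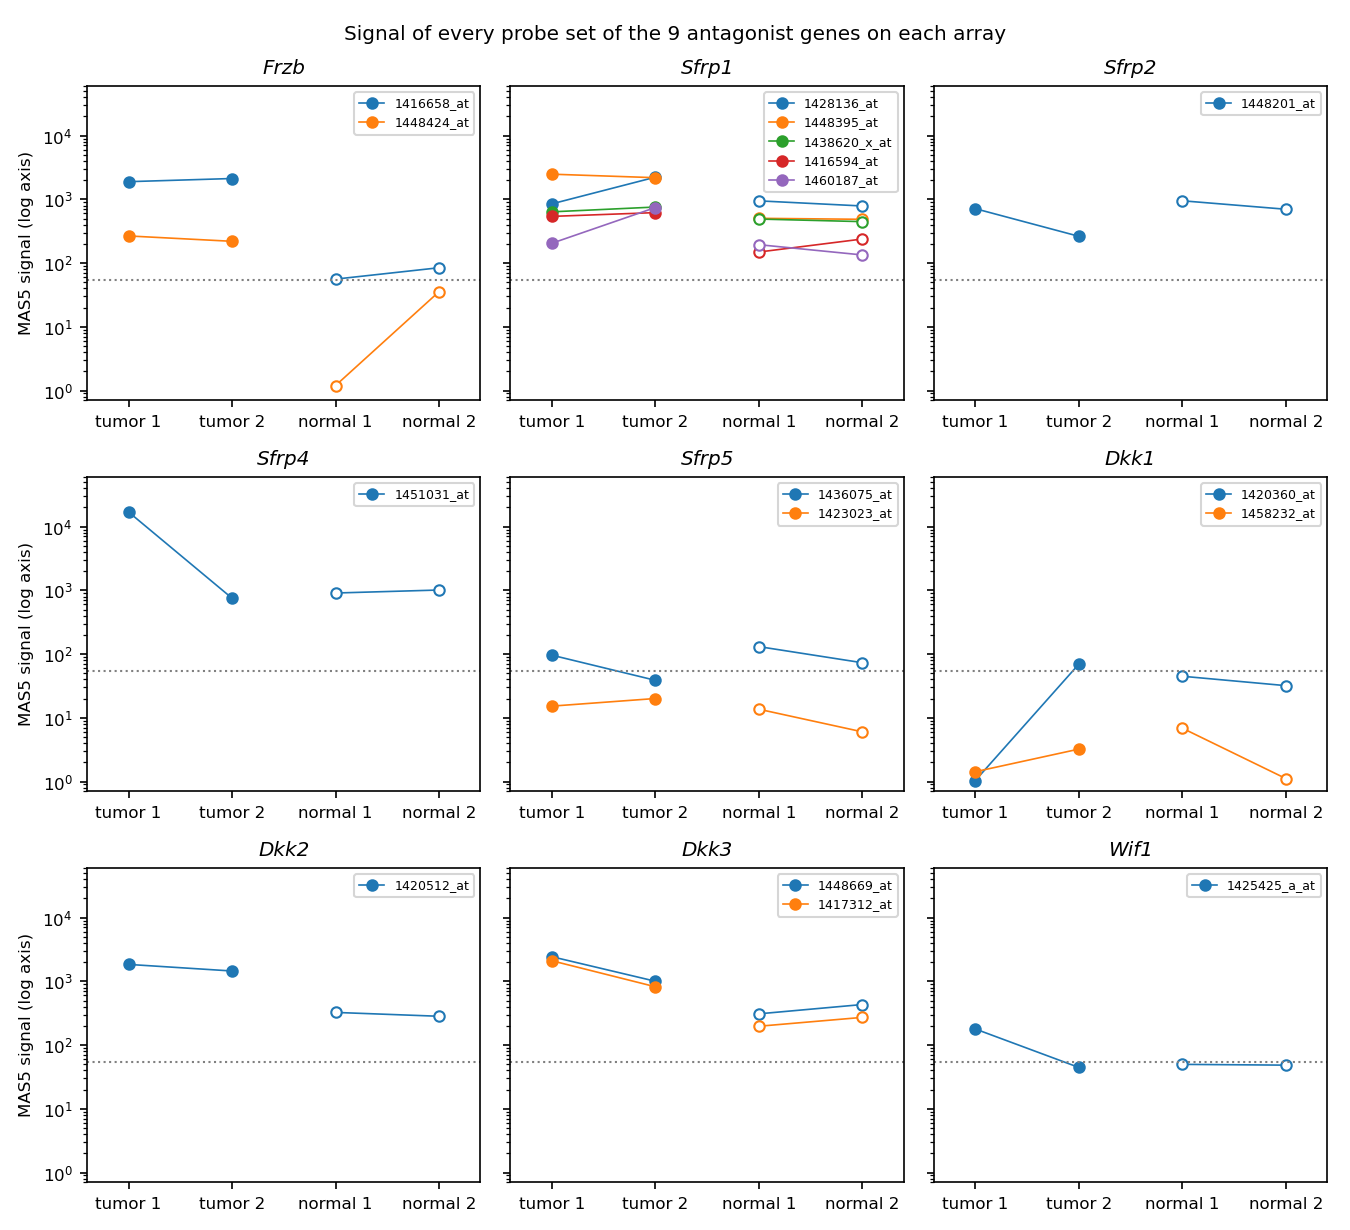
MAS5 signal (log axis) of all 17 probe sets of the 9 genes on tumor 1, tumor 2, normal 1 and normal 2, with filled points for tumors, open points for normal ureter, a line joining the arrays of a group and a dotted line at the filter signal of 54.6. Frzb, Dkk2 and Dkk3 are higher in both tumors, and Sfrp4 reaches 16975 on tumor 1 alone.

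Of the 8 genes in the fit, Frzb and Dkk2 were past the threshold of 0.05 on the adjusted p, both higher in tumors, and 0 were past it with lower values. Over all 13046 genes 0.491% were past it with higher values and 0.943% with lower, and nothing is read from the count of 2, since this contrast was known when the genes were chosen. When either normal array was left out, neither Frzb nor Dkk2 was past the threshold, and no other gene tested was past it. More genes, of these 8 and of all genes, were past it when a tumor array was left out. The lone tumor array is then assumed to vary like the normal arrays, so nothing is read from those calls. With 1 array left out, the log2 difference ran from 4.33 to 4.81 for Frzb and from 2.20 to 2.54 for Dkk2. Tumor arrays did not overlap normal arrays in 3 of the 8, against 57.1% of all genes tested. They were higher in these 3, Frzb, Dkk2 and Dkk3, against 29.4% of all genes, and lower in 0 of the 8, against 27.7%. The same 3 were higher by at least 2 log2 units, against 3.23% of all genes, and 0 of the 8 were lower by that much, against 3.47%. Read without regard to the filter, the 9 genes had a median difference of 0.74, against 0.03 over the genes tested.

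The choice of probe set decides how Sfrp1 is counted. Of its 5 probe sets only 1428136_at, the one used, had overlapping groups. With the probe set and filter taken from the mean of linear signals, an alternative chosen after seeing the data, Sfrp1 was read from 1448395_at, 3 of the genes passed and the median over the 9 was 1.89.

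**Figure D2:**
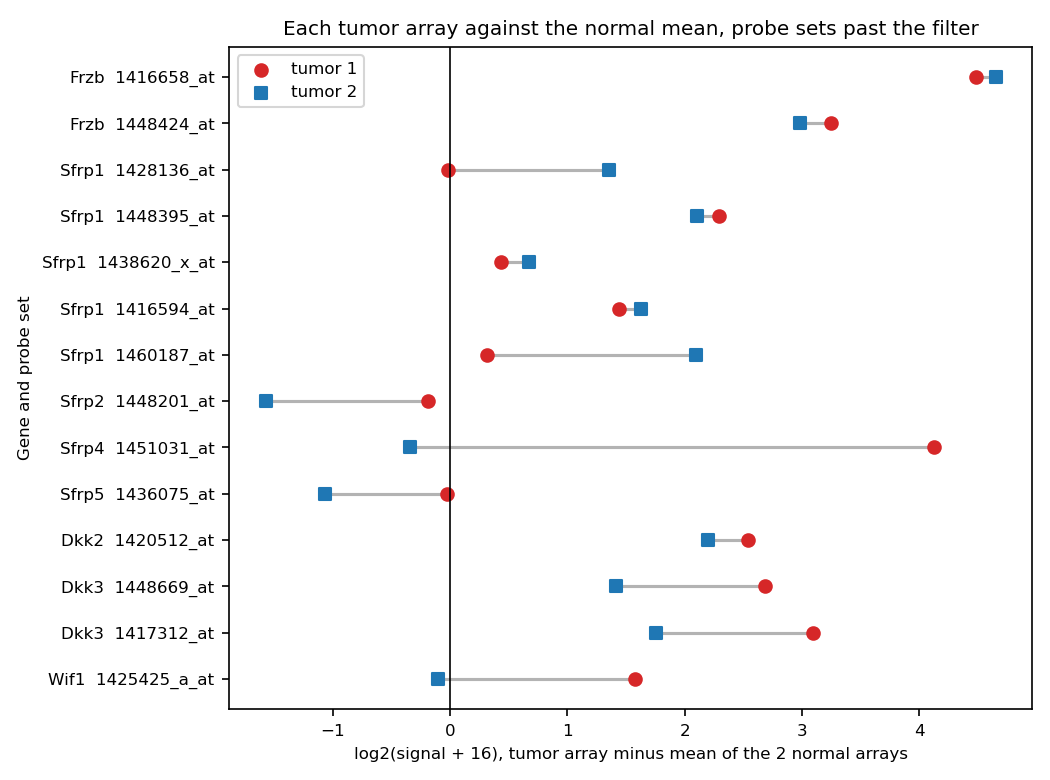
Difference of each tumor array from the mean of the normal arrays on the log2(signal + 16) scale, for the 14 probe sets that reached the filter level; circles are tumor 1 and squares tumor 2. Frzb on 1416658_at lies at 4.49 and 4.65 and Dkk2 at 2.54 and 2.20, while Sfrp4 lies at 4.12 and -0.34.

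The tumors differed from each other in several of these genes, a comparison of 1 array with 1 array that has no replicate check. On the log2 scale the first tumor array exceeded the second by 4.47 for Sfrp4, and 1.88% of the genes tested had a larger gap in either direction. The gap was 1.68 for Wif1, 1.39 for Sfrp2, 1.27 for Dkk3 and 1.03 for Sfrp5, each lower on the second tumor array, and -1.37 for Sfrp1 on 1428136_at. Dkk2 at 0.34 and Frzb at -0.16 had the smallest gaps of the 8, below the median size of 0.47 over the genes tested. A gap of at least 4-fold on this scale was found in 1 of the 8, Sfrp4, and in 8.52% of the genes tested, with the first tumor array the higher in 3.49%. Between the normal arrays the widest gap of these 8 genes was that of Sfrp5, at 0.72, and 0 of the 8 reached 4-fold, against 0.376% of the genes tested.

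**Figure D3:**
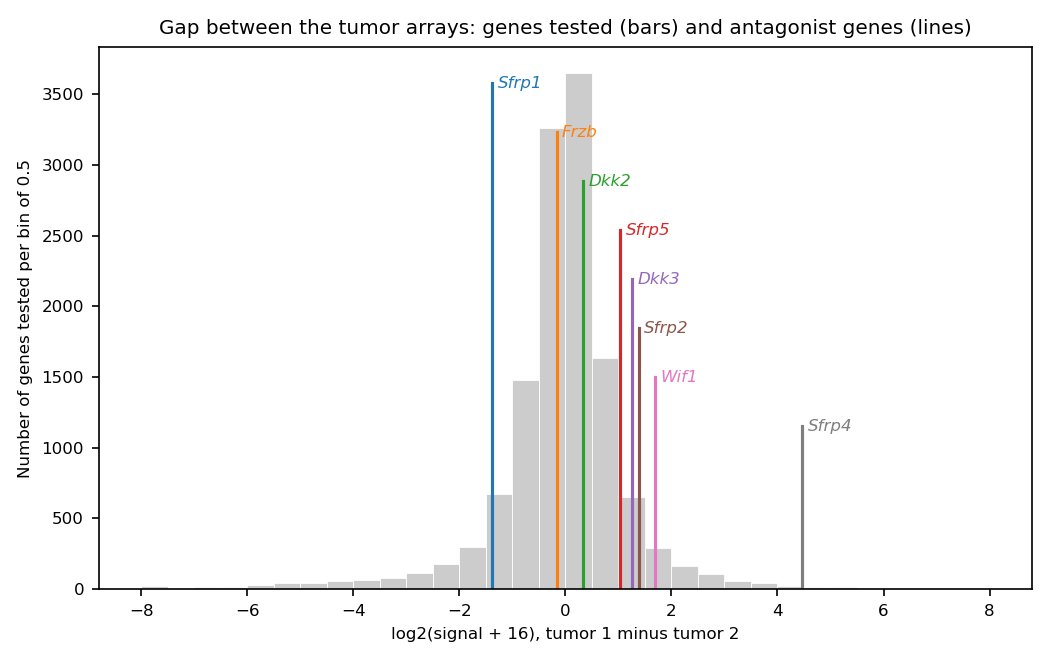
Number of the 13046 genes tested per bin of the log2 difference between tumor 1 and tumor 2 (bars, with values beyond 8 placed in the end bins), and the same difference for the 8 antagonist genes in the fit (coloured lines, whose heights carry no value). Frzb at -0.16 and Dkk2 at 0.34 lie near the centre, and Sfrp4 at 4.47 lies in the tail.

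Likeness of pattern was measured as the Euclidean distance between log2 profiles centred over the 4 arrays, for the 3 genes with the widest range. Nearest to Frzb were the immunoglobulin genes Igkv9-120 (distance 0.24) and Igkv15-103 (0.52) and Olfm4 (0.66), a secreted glycoprotein. Olfm4 had signals of 2537 and 1616 in the tumors, against 47.3 and 61.5 in normal ureter. Nearest to Sfrp4 were Alox12e (0.18), an epidermal lipoxygenase, LOC664787 (0.36) and Chl1 (0.43), a cell adhesion gene, and Alox12e had 2090 and 82.1 in the tumors, against 95.8 and 95.4 in normal ureter. Nearest to Dkk3 were Lst1 (0.05) and Myo1f (0.13), both expressed in leukocytes, and Dck (0.13), which phosphorylates deoxynucleosides. These 4 arrays are few points, and many profiles of 13046 lie close to any one.

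The rest of the Wnt pathway was read from 7 lists that named 100 genes. The array measured 97 of them, and 76 reached the level for the fit. None of the 76 passed the limma test, against 1.43% of all genes tested, while 20 had an unadjusted p under 0.05, 13 higher and 7 lower, against 21.5% of all genes. The tumor arrays lay above both normal arrays in 28 of the 76, against 29.4% of all genes, below both in 15, against 27.7%, and overlapped in 33. Some of the 76 were called when a tumor array was left out, as were many of all genes. The lone tumor array is then assumed to vary like the normal arrays, so nothing is read from those calls.

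Among the ligands, 0 of 12 tested genes passed limma's test and 4 had an unadjusted p under 0.05, with a median difference of 0.04. Wnt5a, which mostly signals without beta-catenin, had signals of 1027 and 1075 in the tumors, against 2362 and 3201 in normal ureter, a log2 difference of -1.38 (SE 0.22, limma adjusted p = 0.083). Wnt7b, made by ureter epithelium, had 554 and 542 in the tumors, against 248 and 280 in normal ureter (limma adjusted p = 0.131). Wnt6 had a log2 difference of -1.39 (limma adjusted p = 0.165). These 3 genes did not overlap between groups, but they were named for having the smallest p of their list. Of the 12 ligands, 3 were higher without overlap, 3 were lower and 6 overlapped, while 57.1% of all genes tested did not overlap. Wls, which carries Wnt proteins to the cell surface, had 7778 and 6042 in the tumors, against 2892 and 3414 in normal ureter (log2 difference 1.12, limma adjusted p = 0.108), and the acyltransferase Porcn had a log2 difference of -0.45 (limma adjusted p = 0.532).

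Among the receptors and co-receptors, 0 of 15 passed limma's test and 3 had an unadjusted p under 0.05, with a median of 0.31. Fzd1, a Frizzled receptor, had 4553 and 4060 in the tumors, against 1755 and 1546 in normal ureter, a log2 difference of 1.38 (SE 0.18, limma adjusted p = 0.063). Its dimmer probe set, 1422985_at, did not show this, with a log2 difference of -0.02, and the average of its probe sets gave 0.68. The pseudokinase Ptk7 and the receptor kinase Ror1 had log2 differences of 1.99 and 0.75 (limma adjusted p = 0.114 and 0.196), and Ror1 one of 0.29 with its probe sets averaged. Of the 7 genes tested among R-spondins, which strengthen Wnt signals, their Lgr receptors and the ligases they block, 0 passed limma's test and 2 had an unadjusted p under 0.05, with a median of 0.04. Rspo3 had 60.2 and 56.3 in the tumors, against 388 and 215 in normal ureter, a log2 difference of -2.04 (SE 0.41, limma adjusted p = 0.112) that was -0.63 with its probe sets averaged, and Rspo1 one of -1.34 (limma adjusted p = 0.176). The ligase Znrf3 and the receptor Lgr4 had log2 differences of 0.35 and 0.19 (limma adjusted p = 0.456 and 0.827). These turn to -0.31 and -0.40 when the probe sets of a gene are averaged. Such averages take in probe sets under the level for the fit. Ror1, Rspo3, Znrf3 and Lgr4 each had only 1 probe set that reached it.

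Of 5 other extracellular inhibitors tested, 0 passed limma's test and 1 had an unadjusted p under 0.05, with a median of 0.14. Apcdd1, a membrane inhibitor that beta-catenin induces, had 1420 and 751 in the tumors, against 3443 and 2871 in normal ureter, a log2 difference of -1.59 (SE 0.37, limma adjusted p = 0.131). Igfbp4, which binds insulin-like growth factors and also Frizzled and Lrp6, had one of 0.84 (limma adjusted p = 0.357). Sostdc1, a ligand of Lrp6 and of BMP proteins, had 112 and 6071 in the tumors, against 317 and 316 in normal ureter, so the tumors lay on opposite sides of normal (limma adjusted p = 0.719).

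In the intracellular part of the pathway, 0 of 18 passed limma's test and 2 had an unadjusted p under 0.05, with a median of 0.03. The co-repressors Tle3 and Tle1 had log2 differences of 1.14 and -0.89 (limma adjusted p = 0.124 and 0.130), although 1 of the other 3 probe sets of Tle3 pointed up and 2 pointed down, and their average gave 0.25. Bcl9l, a co-activator, had one of -0.57 (limma adjusted p = 0.265), and Ctnnb1, which encodes beta-catenin, one of -0.33 (limma adjusted p = 0.482).

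Of 17 target genes of beta-catenin tested, 0 passed limma's test and 7 had an unadjusted p under 0.05, against 21.5% of all genes. Their median was 0.79, and in 11 of them each tumor array exceeded each normal array, against 29.4% of all genes. In 1 both tumor arrays lay below both normal arrays, against 27.7% of all genes, and 5 overlapped. The lower gene was Bambi, one of the 7, named after its values were seen. It had 297 and 365 in the tumors, against 588 and 596 in normal ureter, a log2 difference of -0.82. The protease Mmp7 had 530 and 2395 in the tumors, against 18.0 and 6.03 in normal ureter, a log2 difference of 5.39 (SE 0.83, limma adjusted p = 0.0777). The growth regulator Myc, the receptor Ephb3 and the cyclin Ccnd1 had log2 differences of 1.40, 1.45 and 1.10 (limma adjusted p = 0.0843, 0.165 and 0.220). Axin2, a negative regulator induced by the pathway, had 247 and 283 in the tumors, against 227 and 179 in normal ureter, and is named here after its values were seen. Many of these genes also answer to other signals.

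**Figure D4:**
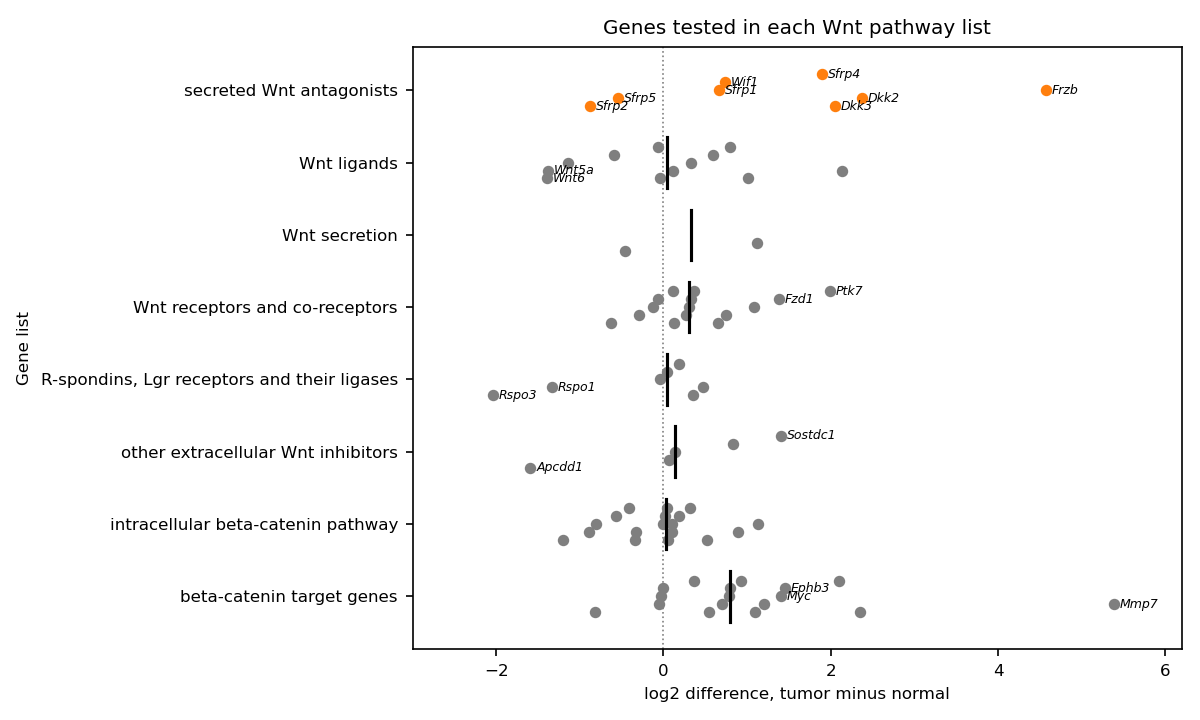
Log2 difference, tumor minus normal, of each gene in the fit for the secreted Wnt antagonists (orange, 8 genes) and the 7 other Wnt pathway lists (grey, 76 genes), with a black bar at the median of each grey list. Frzb at 4.57 lies to the right of every grey gene but Mmp7 at 5.39, and none of the grey genes passed the test.

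The makeup of the tissue differed between the arrays, and in bulk tissue fewer cells of a type and less RNA per cell cannot be told apart. Urothelial markers, which define the labelled tissue, were lower in both tumors than in either normal sample in 9 of 15, against 27.7% of all genes tested, with summed signals of 77433 and 29362 in the tumors against 90323 and 140174 in normal ureter. The uroplakin Upk3a had 69.8 and 52.3 in the tumors against 5987 and 11463 in normal ureter, and the keratin Krt7 had 19322 and 6708 in the tumors against 14089 and 23467 in normal ureter. Not all of the list was low on both tumor arrays: 3 genes, named after their values were seen, were above normal on the first and below it on the second. The basal keratin Krt5 had 15780 and 628 in the tumors against 3415 and 5518 in normal ureter. Trp63, a basal transcription factor, had 10167 and 440 in the tumors against 2446 and 3847 in normal ureter, and Foxa1 had 9443 and 721 in the tumors against 4370 and 6336 in normal ureter. These 3 were high on the first tumor array, as Sfrp4 and Wif1 were, and their part in those values was not tested. Fat cell markers were lower in both tumors in 6 of 6 and summed to 37594 and 6273 in the tumors, against 229335 and 248398 in normal ureter. Smooth muscle markers were lower in 7 of 7 and summed to 16849 and 26523 in the tumors, against 56796 and 45470 in normal ureter. These lists were low where Frzb, Dkk2 and Dkk3 were high, and their part in those values was not tested.

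Macrophage markers were higher on both tumor arrays in 7 of 8, against 29.4% of all genes tested, with sums of 45899 and 34059 in the tumors against 10981 and 9357 in normal ureter. Plasma cell markers were higher in 4 of 6, with sums of 98664 and 61597 in the tumors against 26650 and 26099 in normal ureter. Of the normal sums 17483 and 14310 came from Xbp1, 1 of the 2 markers that overlapped. Jchain, with the largest difference of the list, had 47124 and 37701 in the tumors against 1132 and 967 in normal ureter. The macrophage and plasma cell lists both moved with Frzb, Dkk2 and Dkk3, and their part in those values was not tested. Fibroblast and stromal markers were above both normal arrays in 5 of 12 and below both in 3, against 29.4% and 27.7% of all genes tested. Of these markers 0 passed limma's test, against 1.43% of all genes tested. The 5 with an unadjusted p under 0.05, against 21.5% of all genes, were partly higher and partly lower in tumors. The list summed to 177481 and 80128 in the tumors against 135878 and 106019 in normal ureter. Their sum was thus higher on the first tumor array than on the second, as the signals of Sfrp4, Wif1, Sfrp2, Dkk3 and Sfrp5 were. Against normal the list had medians of 0.82 and -0.75 on the first and second tumor arrays, while Sfrp2 lay at -0.19 and -1.57. Pdgfrb and Col1a1, named after their values were seen, were higher on the second tumor array. The part of these markers was not tested. Kidney tubule markers summed to 1516 and 97005 in the tumors against 10302 and 16517 in normal ureter, so they were highest on the second tumor array, as 1428136_at and 1460187_at of Sfrp1 were, and their part was not tested. Endothelial, nerve and skeletal muscle markers had medians of -0.39, 1.25 and -1.54. Past the limma test were 0 of 7, 0 of 3 and 0 of 2 of them, against 1.43% of all genes tested. An unadjusted p under 0.05 was found in 2, 1 and 1, against 21.5%. Other marker lists had genes past the limma test. They were 4 of 15 urothelial, 1 of 6 fat and 1 of 7 smooth muscle markers, all lower in tumors, against 0.943% of all genes. Higher in tumors were 2 of 8 macrophage and 1 of 6 plasma cell markers, against 0.491%. Of 6 kidney tubule markers 0 were past it. The 3′ to 5′ signal ratio of the Gapdh controls, one of the array's signs of RNA quality, stood at 1.51 and 1.44 in the tumors against 0.920 and 0.923 in normal ureter, and its part was not tested. That of the Actb controls went the other way, at 2.47 and 2.63 in the tumors against 2.90 and 2.82 in normal ureter. Across the genes of the fit, which are not independent replicates, the tumor arrays correlated at r = 0.786 and the normal arrays at r = 0.976 (Pearson).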

How the data were processed

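The authors deposited 1 table of linear intensity for 45101 probe sets. MAS5 produced it, per the submitters' processing notes, and no version or detection calls were given. The trimmed mean of every array was 500. All columns were used. Symbols came from the platform annotation, updated through RefSeq's gene table for 34741 of 34945 probe sets with 1 symbol. A further 932 had several symbols and 9160 none, and the 64 controls were left out. Signals were turned into log2(signal + 16). Each gene was read from its probe set with the highest mean, and genes at or above the 40th percentile were tested with limma 3.58.1 (R 4.3.3). The prior variance followed the mean level, and 2 residual degrees of freedom remained. The test was two-sided, with Benjamini-Hochberg adjustment over 13046 genes. An exact permutation test of 2 against 2 could not pass the threshold and was not run.

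The 9 genes and all 17 lists, 7 of Wnt genes and 10 of cell markers (urothelial, fat, smooth muscle, fibroblast, endothelial, macrophage, plasma, nerve, kidney tubule and skeletal muscle), were chosen with earlier results of these data known. Named are the 9 genes, the 3 genes with the smallest p and the one with the highest level of each Wnt list, and the nearest profiles of 3 genes. From each marker list the rule allows the brightest gene and those with the largest differences, of which only a few are printed. The procedure was tested on simulated data. Alternatives covered the pseudocount, scaling, filter, probe set, prior variance, replicate block and each array left out. Figures were drawn with matplotlib 3.10.9. RefSeq's promoter table, of GRCm38.p6, held 6 of the 9 genes.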

Additional observations from a re-analysis of the deposited data

How the results depend on the processing

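All values here rest on 2 arrays a group, and dim genes such as Dkk1, Sfrp5 and Wif1 are limited by signal close to background. The count of 187 genes past the limma test was 35 with each array centred on its median, which moved the median of all genes to 0.22, 104 with probe sets averaged, 357 with every probe set on its own and 2 without the intensity trend. It lay between 0 and 5502 when 1 array was left out. With the replicate number as a block it was 0, with 2253 genes at an unadjusted p under 0.05. Whether the numbers pair the samples is not stated. The gaps between tumors and between normal arrays had r = 0.04 over genes. This cannot decide it, since the gaps were of unlike size, with medians of 0.47 between tumors and 0.20 between normal arrays. The median over the 9 antagonists lay between 0.66 and 1.58 when 1 array was left out and was 1.89 with the linear mean. The 76 other Wnt genes gave between 0 and 40 calls when 1 array was left out and 0 under every other setting. Of the antagonists, 2 passed. With median centring (Frzb) or probe sets averaged (Dkk2) 1 did, and without the trend or with the block 0 did. With every probe set on its own 3 did, Frzb, Dkk2 and Sfrp1. Frzb ran from 3.84 to 4.84 and Dkk2 from 2.20 to 2.57. Signs turned without tumor replicate 1 in Sfrp4 (-0.34), Wif1 (-0.10) and the dim Dkk1 (0.66), and without tumor replicate 2 in Sfrp1 (-0.02). Averaging the probe sets of a gene took in those under the filter level. It gave 1.23 for Sfrp1 and -0.08 for Sfrp5, and lowered Fzd1 to 0.68, Ror1 to 0.29 and Tle3 to 0.25. It also moved Rspo3 to -0.63, and turned Znrf3 to -0.31 and Lgr4 to -0.40. With 1 array left out Lgr4 ran from -0.35 (without tumor replicate 2) to 0.73 and Sostdc1 from -1.38 (without tumor replicate 2) to 4.19. The cause of these changes was not tested.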

Other observations

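Several other genes of the Wnt lists had patterns like those of the antagonists, and they are named here after their values were seen. Wnt10a, a ligand of skin and tooth development, had signals of 876 and 319 in the tumors, against 83.6 and 140 in normal ureter, and did not pass the limma test (log2 difference 2.13, limma adjusted p = 0.171). The matricellular genes Ccn4 and Ccn5 had 205 and 535, and 713 and 185, in the tumors, against 83.8 and 49.8, and 149 and 18.1, in normal ureter, in that order of genes (limma adjusted p = 0.167 and 0.302). In both the tumor arrays lay above the normal arrays, with Ccn4 higher on the second tumor array and Ccn5 on the first. Cd44, a hyaluronan receptor, had 9248 and 1957 in the tumors, against 1631 and 2066 in normal ureter, so that it was high on the first tumor array alone, as Sfrp4 was. Of the 76 genes, 5 differed at least 4-fold between the tumor arrays, against 8.52% of all genes tested, and nothing is read from that count.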
